A study of Mus musculus with 30 samples.

Results

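The genes described here are 50 targets of interferon signalling and of MHC class I antigen presentation, chosen by gene symbol from the 56686 genes of a table of bulk RNA-seq of mouse lumbar dorsal root ganglia. They comprise 23 antiviral effectors, 2 sensors of foreign nucleic acid, 5 transcription regulators, 13 interferon-inducible GTPases and 7 genes of the MHC class I pathway. The role names are broad labels, and the antiviral effectors also take in other interferon targets such as Usp18, Xaf1, Parp14 and Dtx3l. These ganglia contain sensory neuron cell bodies, glia (satellite and Schwann cells), blood vessels and resident immune cells. The mice were male wild-type C57BL/6J animals that received saline, cyclophosphamide (an alkylating agent), vincristine (which blocks microtubule assembly), doxorubicin (an anthracycline), dexamethasone (a glucocorticoid) or CVAD, the regimen that combines these drugs. Ganglia L3 to L5 of both sides were taken on day 2 from mice given saline, CVAD, cyclophosphamide or dexamethasone, and on day 8 from mice given any of the 6 treatments. Each of the 10 groups had 3 libraries, 30 in all. All mice were perfused with RNAlater. Age, doses and schedules are not given in the sources used here, and neither is whether a library came from 1 mouse or a pool, so p-values measure the spread between these libraries, which may be technical.

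Interferons are secreted proteins that cells release on sensing a virus or damaged nucleic acid. Type I interferons signal through the Ifnar1 and Ifnar2 receptor chains, and their targets carry interferon-stimulated response elements. Interferon gamma, made by T and NK cells, signals through Ifngr1 and Ifngr2, and many of its targets carry gamma-activated sites. Antiviral effectors such as Isg15, the Mx proteins and the Oas enzymes are known mainly as type I targets, whereas many guanylate-binding proteins, immunity-related GTPases, Tap1 and Psmb9 respond strongly to interferon gamma. MHC class I molecules display peptides, cut by the immunoproteasome and pumped by Tap1 and Tap2, to CD8 T cells.

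The sequence before the transcription start was in RefSeq's promoter table (GRCm38.p6) for 37 of the 50 genes. Over the 250 bases before the start, the core of the interferon-stimulated response element, GAAANNGAAA on either strand, was found in 19 of these 37 genes (51.4%) and in 3.46% of all 27025 genes of the table. The letters of the gamma-activated site, TTCNNNGAA, which read the same on both strands, were found in 10 of 37 (27%) against 8.13%. The 2 patterns can share bases, as in Bst2. By role, the response element was in 8 of 9 GTPases with a promoter in the table, in 9 of 17 antiviral effectors and in 1 of 6 MHC class I genes. These are matches of letters only and do not show binding.

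The promoters below are shown because the results turn on these genes, because they carry the joint pattern described next (Irgm2 and Tgtp1), or because the gene is the MHC class I member with a response element (B2m). All are written 5′ to 3′ on the gene's strand and end at the base before the start, and capitals mark every match to either pattern. Isg15 is an antiviral effector with 3 overlapping response elements between 78 and 57 bases before the start (chr4:156200819-156201068, minus strand). Ifit3b, a near copy of Ifit3, has 2 response elements read on the opposite strand (chr19:34607707-34607956, plus strand). Gbp2 has 1, at 59 bases before the start (chr3:142620413-142620662, plus strand).
Isg15: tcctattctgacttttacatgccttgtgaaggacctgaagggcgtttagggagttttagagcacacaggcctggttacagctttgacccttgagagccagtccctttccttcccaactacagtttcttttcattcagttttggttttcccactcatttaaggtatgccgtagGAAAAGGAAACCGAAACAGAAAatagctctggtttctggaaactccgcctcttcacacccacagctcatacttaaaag
Ifit3b: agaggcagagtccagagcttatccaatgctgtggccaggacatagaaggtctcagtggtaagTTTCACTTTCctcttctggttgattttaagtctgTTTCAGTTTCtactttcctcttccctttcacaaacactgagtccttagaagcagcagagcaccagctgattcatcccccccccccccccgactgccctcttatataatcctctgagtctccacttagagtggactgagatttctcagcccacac
Gbp2: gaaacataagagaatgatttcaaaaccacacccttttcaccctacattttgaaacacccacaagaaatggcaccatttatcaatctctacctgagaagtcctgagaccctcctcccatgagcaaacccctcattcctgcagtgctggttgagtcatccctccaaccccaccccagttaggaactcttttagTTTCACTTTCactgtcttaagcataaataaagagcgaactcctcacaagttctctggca
Igtp (chr11:58199306-58199555, plus strand), Irgm2 (chr11:58214727-58214976, plus strand) and Tgtp1 (chr11:48992247-48992496, minus strand) are immunity-related GTPases, and in all 3 a gamma-activated site is followed after 2 bases by a response element. That joint pattern, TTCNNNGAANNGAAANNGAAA, was noticed in these promoters and was then found in 5 of the 27025 genes (0.0185%), the others being Gm12185 and Tgtp2. The Igtp and Irgm2 promoters share long runs of bases, and their gene entries overlap on the same strand, so these occurrences are not independent.
Igtp: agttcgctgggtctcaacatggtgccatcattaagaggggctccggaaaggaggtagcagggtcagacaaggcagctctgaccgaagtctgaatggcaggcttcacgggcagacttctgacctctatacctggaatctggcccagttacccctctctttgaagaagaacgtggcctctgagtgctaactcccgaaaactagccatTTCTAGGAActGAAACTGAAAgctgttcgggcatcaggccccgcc
Irgm2: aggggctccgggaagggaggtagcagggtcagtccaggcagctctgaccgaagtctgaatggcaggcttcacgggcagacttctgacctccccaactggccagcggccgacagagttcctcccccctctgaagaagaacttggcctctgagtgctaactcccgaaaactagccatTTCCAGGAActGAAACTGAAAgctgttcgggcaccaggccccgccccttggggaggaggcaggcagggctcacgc
Tgtp1: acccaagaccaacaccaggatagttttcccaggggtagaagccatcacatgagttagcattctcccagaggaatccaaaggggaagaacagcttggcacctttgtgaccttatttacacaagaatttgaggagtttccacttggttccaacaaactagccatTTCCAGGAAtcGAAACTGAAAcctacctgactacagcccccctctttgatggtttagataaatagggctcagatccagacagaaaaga
Tap1 (chr17:34187306-34187555, plus strand) and Psmb9 lie head to head, and their windows share 225 bases. The stretch holds neither pattern in these letters. B2m, the light chain of MHC class I (chr2:122147437-122147686, plus strand), has 1 response element at 139 bases before the start.
Tap1: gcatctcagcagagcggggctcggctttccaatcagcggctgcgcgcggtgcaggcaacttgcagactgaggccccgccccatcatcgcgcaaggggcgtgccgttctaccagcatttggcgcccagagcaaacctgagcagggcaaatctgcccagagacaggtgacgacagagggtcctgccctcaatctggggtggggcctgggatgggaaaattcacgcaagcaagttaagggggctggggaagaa
B2m: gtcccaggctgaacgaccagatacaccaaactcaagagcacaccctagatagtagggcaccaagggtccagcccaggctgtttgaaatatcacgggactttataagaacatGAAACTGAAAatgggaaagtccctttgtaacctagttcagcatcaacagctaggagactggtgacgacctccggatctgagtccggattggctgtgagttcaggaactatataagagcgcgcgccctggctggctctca

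Levels are given in TPM, the share of transcripts scaled to a fixed total, a unit corrected for transcript length. Of the 50 genes, 49 reached at least 1 TPM in at least 3 libraries and were tested. Irf1, a transcription factor that interferon gamma induces, is listed at 0 in all 30 libraries, and since the table gives no counts, a 0 throughout may be an estimate that failed and does not show that the gene is silent. Mean levels over the 30 libraries ran from 2.26 TPM for Oas3 to 165 TPM for Ifi27, and the next highest were B2m (141), H2-D1 (123), H2-K1 (102), Ifitm3 (84.1) and Stat2 (73.8). The ratio of the highest to the lowest group mean was 1.16 to 3.79 across the 49 genes, with a median of 1.55. It was 2 or more for 12 genes, led by Zbp1 (3.79), Mx1 (3.05) and Iigp1 (3.01). B2m, H2-D1 and Ifitm3 varied least, at 1.16, 1.16 and 1.19.

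The groups in which a gene was highest followed its role. The mean was highest in saline on day 8 for 26 genes, which include 12 of the 13 GTPases and all 7 MHC class I genes. It was highest in vincristine on day 8 for 22 genes, which include 17 of the 23 antiviral effectors and both sensors, and in cyclophosphamide on day 2 for Parp14. The lowest mean was that of cyclophosphamide on day 8 for 24 genes and that of saline on day 2 for 14. Single libraries weighed on this: saline day 8 replicate 1 was the highest of all 30 libraries for 21 genes, among them 12 of 13 GTPases, and vincristine replicates 1 and 3 for 11 each. Saline day 2 replicates 1 and 2 were the lowest of 30 for 12 and 10 genes, whereas saline day 2 replicate 3 was the lowest for none.

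**Figure D1:**
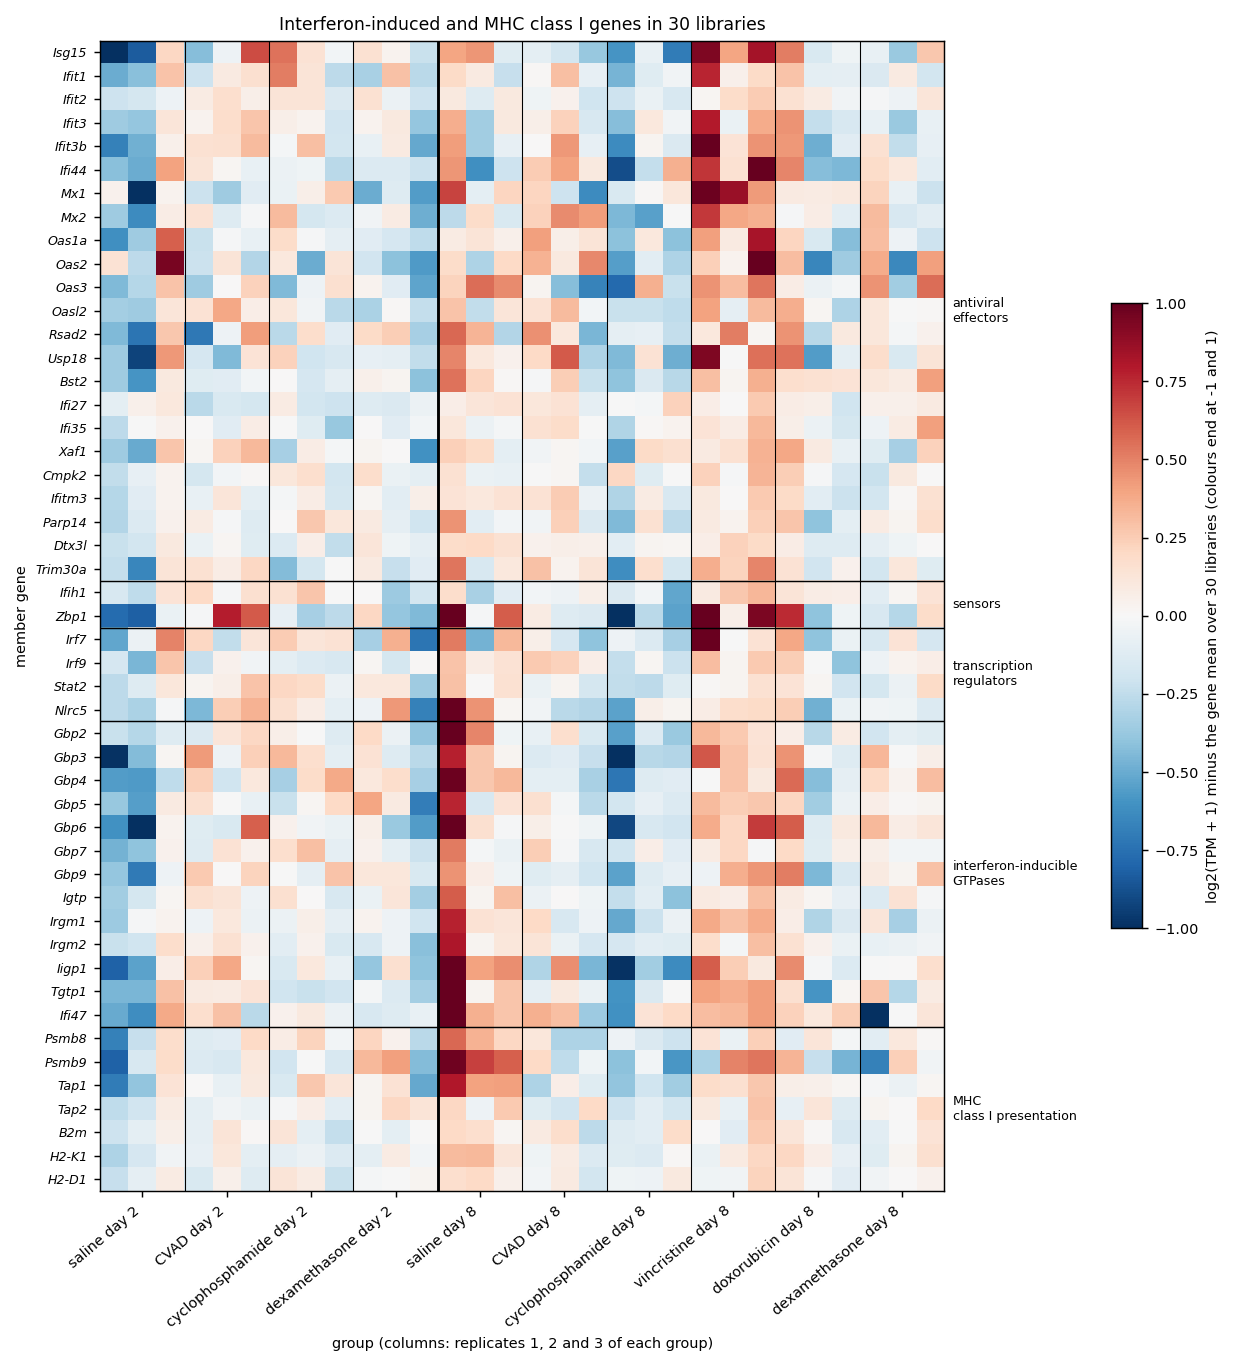
Level of 49 tested genes (rows, by role) in 30 libraries (columns, by group, replicates 1 to 3 from left to right), as log2(TPM + 1) minus the gene's mean over all libraries. The first saline day 8 column is the highest of 30 for 21 genes, mostly GTPases, and the vincristine columns are high in the antiviral effectors at the top.

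**Figure D2:**
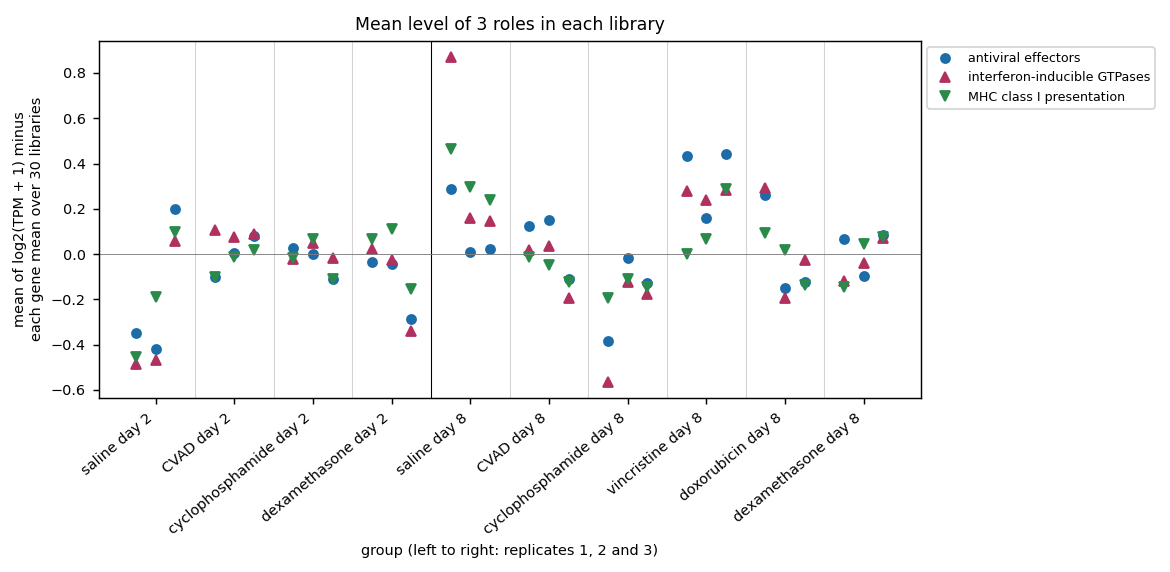
Mean over the genes of a role of log2(TPM + 1), each gene taken relative to its mean over 30 libraries, for antiviral effectors, GTPases and MHC class I genes in each library. Saline day 8 replicate 1 stands at 0.87 for the GTPases, while saline day 2 replicates 1 and 2 stand at −0.48 and −0.47 and replicate 3 at 0.06.

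The files hold no read counts, so the depth of the libraries is unknown. Between 25342 and 27972 genes were above 0 TPM in a library, and 60.5 to 73.8% of a library's TPM came from genes that code for proteins. Markers of the tissue were present in every library: 6 sensory neuron markers summed to 889 to 1256 TPM, 4 of satellite glia to 264 to 376 and 4 of Schwann cells to 1101 to 1630. Of the markers of other cells, Cd3e and Cd3d (T cells), S100a8 and S100a9 (neutrophils) and Aqp4 (spinal cord astrocytes) are listed at 0 in every library. The same limit holds for these zeros, so the T cell and neutrophil sums below rest on the other markers of their lists. Skeletal muscle markers summed to 7.31 to 646 TPM. In bulk tissue fewer cells of a type and less RNA per cell cannot be told apart.

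Differences are log2 fold changes on the log2(TPM + 1) scale with their standard errors, and adjusted p-values are from limma with Benjamini-Hochberg adjustment over 25434 genes. No member passed an adjusted p of 0.05 in any of the 15 comparisons of the model over all libraries, so directions below describe values and not calls. Each drug on a given day was set against the same 3 saline libraries, so the comparisons with saline are not independent of each other. With 3 libraries against 3, the smallest 2-sided p of an exact permutation test of 1 gene would be 0.1.

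Cyclophosphamide on day 8 had the lowest group mean of 24 of the interferon targets. Of 49 genes, 48 (all but Cmpk2) were lower than in saline, as against 61% of all tested genes, with a median difference of −0.34 against −0.04 over all tested genes. Both sensors were lower, at a median of −0.71, and so were all 13 GTPases, at −0.63. The 4 tested regulators (all lower) and the 7 MHC class I genes (all lower) were at −0.34 and −0.33, and the antiviral effectors at −0.26 with 22 of 23 lower. None passed the adjusted threshold, as against 0.00786% of all tested genes. At an unadjusted p under 0.05, 23 members were lower and 0 higher, while 4.57% of all genes were lower and 1.19% higher. The 3 cyclophosphamide libraries lay wholly below the 3 saline libraries for 22 members, 11 of them GTPases, as against 7.25% of all genes.

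Iigp1, a GTPase that attacks the vacuoles of intracellular parasites, was at 4.12, 6.97 and 5.57 TPM in the 3 cyclophosphamide libraries and at 24.7, 12.4 and 13.02 in saline. The groups do not overlap, and the first saline library is far above the others. Its mean was 5.56 ± 1.42 TPM against 16.7 ± 6.92 (SD, n = 3 each), a difference of −1.39 ± 0.27 (limma adjusted p = 0.112). Tap1, a subunit of the peptide transporter, was at 12.3, 14.2 and 12.7 TPM against 29.4, 22.1 and 22.1. The difference of −0.85 ± 0.17 had a limma adjusted p of 0.171. Its groups do not overlap, and it passed when each day was fitted in a model of its own (limma adjusted p = 0.0286, where the other settings ran up to 0.732).

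Gbp2, a guanylate-binding protein, was at 12.8, 17.2 and 14.5 TPM after cyclophosphamide against 46.5, 27.2 and 18.4 in saline. The 3 saline libraries thus spread more widely than the difference from the drug. Its difference of −0.91 ± 0.20 (limma adjusted p = 0.442) was −0.57 without saline replicate 1 and −1.22 without saline replicate 3, where its limma adjusted p was 0.00772, the lowest of a range that ran to 0.901 over the settings tried. Igtp, whose promoter carries the joint pattern, was at 25.9, 28.6 and 22.9 TPM against 47.4, 31.4 and 38.1. Its groups do not overlap, and the difference was −0.56 ± 0.13 (limma adjusted p = 0.442).

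The differences from saline on day 8 were larger with saline replicate 1 included. Without it, the GTPase median after cyclophosphamide was −0.40 with 13 of 13 lower, and the median over all members was −0.26 with 46 of 49 lower. The 23 members at an unadjusted p under 0.05 were 15 without saline replicate 1 and 15 without cyclophosphamide replicate 1. Markers of immune cells were also lower after cyclophosphamide: the 8 macrophage markers summed to 144 to 193 TPM against 172 to 241 in saline, and 8 of 8 were lower. The 7 T and NK cell markers, Cd3e and Cd3d at 0, summed to 2.09 to 8.18 TPM against 9.55 to 15.2. Neutrophil markers summed to 95.5 to 151 TPM against 188 to 312. The part of these cells in the member differences was not tested.

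**Figure D3:**
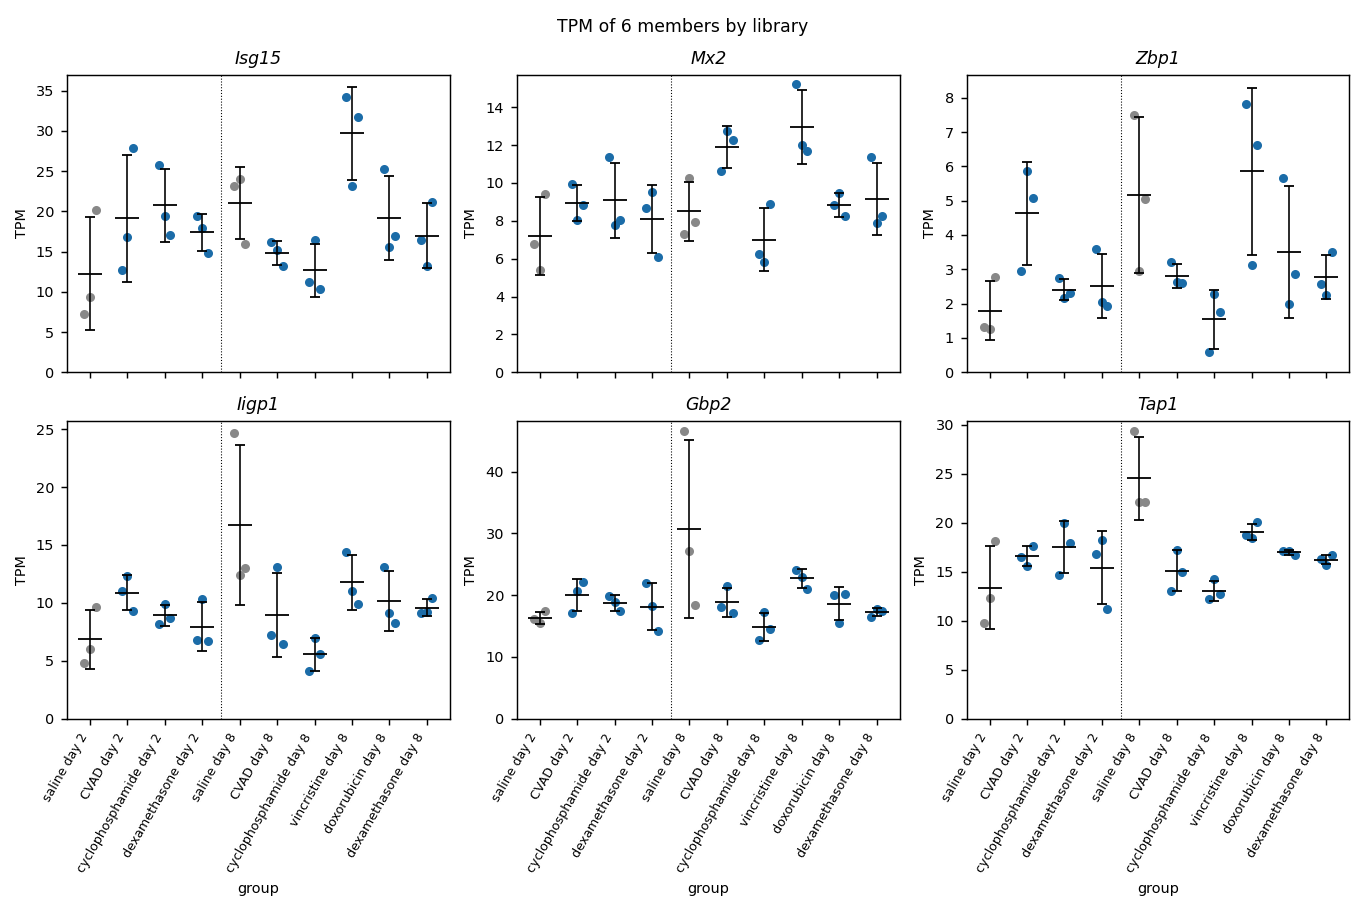
TPM of Isg15, Mx2, Zbp1, Iigp1, Gbp2 and Tap1 in each library (points; grey for saline, blue for drugs) with the mean and SD of 3 libraries (bars), by group. Iigp1, Gbp2 and Tap1 have their highest point in saline day 8 replicate 1, and Isg15, Mx2 and Zbp1 in vincristine replicate 1.

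Vincristine on day 8 gave another pattern, in which antiviral effectors were mostly higher than in saline and MHC class I genes lower. The direction of the GTPases turned without saline replicate 1, as given below. The 23 antiviral effectors had a median difference from saline of 0.18, with 19 higher, and both sensors were higher. The GTPases were at −0.06 with 10 of 13 lower, and all 7 MHC class I genes were lower, at a median of −0.18. Over all 49 members, 26 were higher and 23 lower, as against 54.7% and 44.3% of all genes, and the median was 0.01 beside 0.02. None passed (0% of all genes did), and at an unadjusted p under 0.05 there were 4 members higher (Mx2, Ifi44, Ifih1 and Ifit3b) and 0 lower, as against 2.04% and 1.41% of all genes. The 4 became 1 without any of vincristine replicate 1, saline replicate 2 and saline replicate 3, and 2 without vincristine replicate 3. The count of lower members at that p rose from 0 to 4 without saline replicate 3. It was 2 without saline replicate 2 or vincristine replicate 3, and 3 after median-ratio scaling. Mx2 lay wholly above saline, and Tap1 and Psmb9 wholly below it, where the shares of all genes were 3.46% and 2.72%.

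Mx2, of a family of dynamin-like GTPases, was at 15.2, 11.99 and 11.7 TPM with vincristine against 7.30, 10.3 and 7.95 in saline. The groups do not overlap, and the difference was 0.56 ± 0.20 (limma adjusted p = 1). Ifi44 was at 6.80, 4.28 and 8.57 TPM against 5.46, 2.11 and 3.11. The lowest vincristine library lay below the highest saline library, and the difference was 0.75 ± 0.31 (limma adjusted p = 1). Ifih1, the RNA sensor MDA5, was at 15.98, 18.2 and 19.1 TPM against 17.03, 11.7 and 13.8, a difference of 0.32 ± 0.14 (limma adjusted p = 1) that was 0.20 without saline replicate 2. Saline replicate 1 overlapped the vincristine group for each of Ifi44 and Ifih1.

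Ifit3b, of a family that binds viral RNA, was at 32.3, 16.6 and 20.9 TPM with vincristine against 20.4, 11.6 and 14.1. Its difference of 0.55 ± 0.26 (limma adjusted p = 1) was 0.30 without vincristine replicate 1. The Ifit3 and Ifit3b promoters matched at 86.2% of 218 bases, and reads of such close copies may be split between them. Isg15, a ubiquitin-like protein joined to other proteins in infected cells, was at 34.2, 23.2 and 31.7 TPM, against 23.2, 24.04 and 15.9 in saline. Vincristine replicates 1 and 3 were the highest of all 30 libraries for Isg15, and replicate 2 overlapped saline.

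The MHC class I genes were all lower with vincristine than in saline, but apart from Tap1 and Psmb9 their groups overlapped. B2m was at 141, 130 and 169 TPM against 162, 159 and 143, and H2-D1 at 119, 119 and 143 against 137, 141 and 127. The antiviral median did not rest on saline replicate 1, since it was 0.27 without that library, with 19 of 23 higher. The GTPase median did turn, to 0.14 with 10 of 13 higher. The 8 macrophage markers summed to 222 to 239 TPM with vincristine against 172 to 241 in saline. T and NK markers summed to 7.23 to 12.2 against 9.55 to 15.2, and skeletal muscle markers to 237 to 465 against 10.8 to 374. Neutrophil markers summed to 89.8 to 214 TPM with vincristine against 188 to 312. Of these, 5 of 5 tested were lower (median −0.96), 4 at an unadjusted p under 0.05. Their part was not tested.

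**Figure D4:**
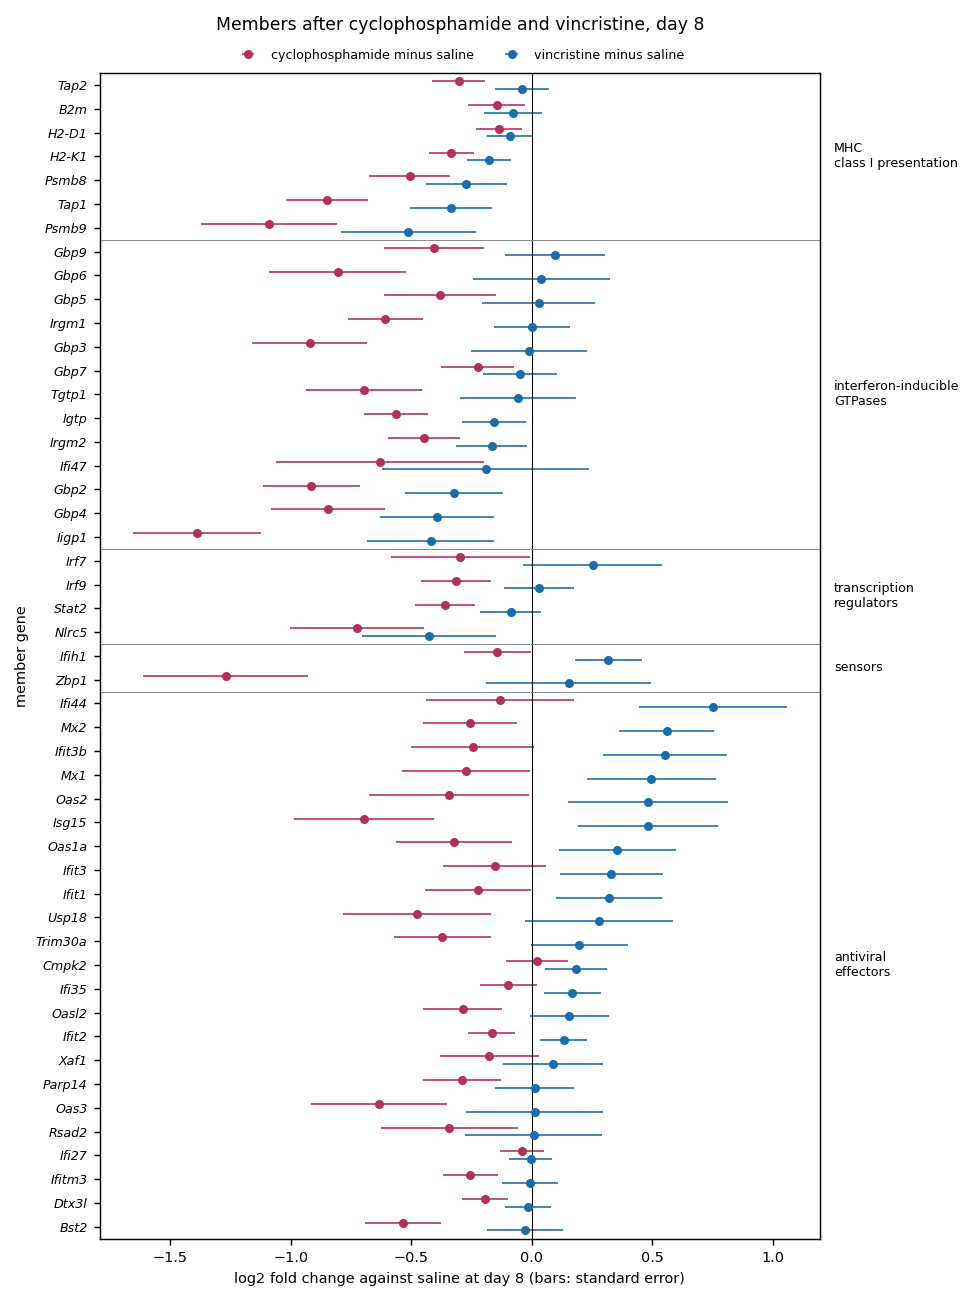
Difference from saline on day 8 (log2 fold change, bars are standard errors) of 49 genes after cyclophosphamide (red) and vincristine (blue), by role. For every gene the vincristine value lies to the right of the cyclophosphamide value, both being set against the same 3 saline libraries.

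Set directly against each other, vincristine and cyclophosphamide on day 8 had the most members apart of the 12 comparisons of 2 groups. All 49 were higher with vincristine, as against 66.3% of all genes, at a median of 0.46 beside 0.06 over all genes. The antiviral effectors and the GTPases had medians of 0.51 and 0.50 and the MHC class I genes 0.24. None passed (0% of all genes did). At an unadjusted p under 0.05, 31 members were higher, as against 4.31% of all genes, and none lower (0.751%). The vincristine libraries lay wholly above the cyclophosphamide libraries for 33 members, as against 7.77% of all genes, and these were 13 antiviral effectors, 12 GTPases, both sensors, the 4 tested regulators and 2 MHC class I genes.

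Zbp1, a sensor of left-handed nucleic acid that can trigger cell death, was at 7.83, 3.14 and 6.61 TPM with vincristine and at 0.596, 2.29 and 1.75 with cyclophosphamide. The groups are apart although both are wide, and the difference was 1.42 ± 0.34 (limma adjusted p = 0.634). Mx2 was at 15.2, 11.99 and 11.7 TPM against 6.27, 5.81 and 8.90, a difference of 0.82 ± 0.20 (limma adjusted p = 0.634). The macrophage sums of 222 to 239 and 144 to 193 TPM did not overlap either, and all 8 markers were higher with vincristine. Their part in the member differences was not tested. After median-ratio scaling 46 of the 49 members were higher. The 31 members at an unadjusted p under 0.05 were 16 without cyclophosphamide replicate 1 and 20 without vincristine replicate 3.

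CVAD on day 8 had values mostly between those of these drugs. Against saline, 38 of 49 members were lower, as against 44.7% of all genes, at a median of −0.18 beside 0.02 over all genes. All 13 GTPases (median −0.39) and all 7 MHC class I genes (−0.29) were lower, but the antiviral effectors were near level, at −0.04 with 14 of 23 lower. None passed (0% of all genes). At an unadjusted p under 0.05 there were 13 lower and 1 higher (Mx2), as against 2.78% and 3.20% of all genes, and 11 lay wholly below saline, as against 4.58%. Without saline replicate 1 the median over members was −0.10, the GTPase median −0.17 with 12 of 13 lower, and the MHC class I median −0.25 with 7 of 7 lower, and 5 members in place of 13 were lower at an unadjusted p under 0.05.

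Tap1 was at 13.1, 17.2 and 14.96 TPM with CVAD against 29.4, 22.1 and 22.1 in saline, with no overlap (−0.66 ± 0.17, limma adjusted p = 0.306). Psmb8, a catalytic subunit of the immunoproteasome, was at 17.9, 13.1 and 13.1 TPM against 24.98, 21.2 and 19.1. These groups were apart as well (−0.54 ± 0.17, limma adjusted p = 0.498). Iigp1 was at 7.24, 13.1 and 6.42 TPM against 24.7, 12.4 and 13.02, so that CVAD replicate 2 overlapped saline. Its difference was −0.83 ± 0.27 (limma adjusted p = 0.534), and −0.53 without saline replicate 1. H2-K1, a classical class I heavy chain, was at 98.2, 107 and 91.9 TPM against 126, 127 and 110, with no overlap (−0.29 ± 0.09, limma adjusted p = 0.537). Neutrophil markers summed to 54.7 to 83.0 TPM with CVAD against 188 to 312 in saline, and macrophage markers to 174 to 222 against 172 to 241. T and NK markers summed to 4.99 to 8.93 TPM against 9.55 to 15.2, with no overlap. Of these, 3 of 4 tested were lower (median −0.51), 2 at an unadjusted p under 0.05. The part of these cells was not tested.

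CVAD was also set against its single drugs. Relative to vincristine, all 49 members were lower with CVAD, as against 49.3% of all genes, at a median of −0.25 beside 0. None passed (0% of all genes), 7 were lower and 0 higher at an unadjusted p under 0.05 (1.84% and 1.64% of all genes), and 16 lay wholly below (4.13%). Mx1, of the same family as Mx2, was at 2.82, 1.86 and 1.12 TPM with CVAD against 5.51, 4.997 and 3.42 (−0.97 ± 0.27, limma adjusted p = 1). Isg15 was at 16.2, 15.2 and 13.2 TPM against 34.2, 23.2 and 31.7 (−0.94 ± 0.29, limma adjusted p = 1). Neither gene's groups overlapped. The 7 members became 3 without CVAD replicate 3 and 4 without vincristine replicate 3. Markers of other cells were lower with CVAD too: neutrophil markers in 5 of 5 tested (median −0.82, 3 at an unadjusted p under 0.05), macrophage markers in 7 of 8 (−0.12, 2 at an unadjusted p under 0.05) and skeletal muscle markers in 5 of 5 (−0.63). Their part was not tested.

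Relative to cyclophosphamide, 42 of 49 members were higher with CVAD, as against 66% of all genes, at a median of 0.20 beside 0.06. None passed (0%), 5 were higher (Mx2, Oasl2, Ifitm3, Irf9 and Iigp1) and 0 lower at an unadjusted p under 0.05 (4.54% and 0.802% of all genes), and 9 lay wholly above (8.98%). Mx2 was at 10.6, 12.8 and 12.3 TPM with CVAD against 6.27, 5.81 and 8.90 (0.71 ± 0.20, limma adjusted p = 0.764). Oasl2, a relative of the enzymes that make 2-5A in response to double-stranded RNA, was at 49.8, 56.4 and 44.2 TPM against 38.5, 38.4 and 37.6 (0.38 ± 0.16, limma adjusted p = 0.914). Both genes were separate between the 2 groups. The member median was 0.12, with 38 of 49 higher and 1 at an unadjusted p under 0.05, without cyclophosphamide replicate 1. The 5 became 1 or 2 without CVAD replicate 2, CVAD replicate 1 or cyclophosphamide replicate 3, and 9 without cyclophosphamide replicate 2. After median-ratio scaling the median was 0.13 with 38 of 49 higher. Neutrophil markers were lower with CVAD than with cyclophosphamide in 5 of 5 (−0.72), and macrophage markers higher in 7 of 8 (0.19). Skeletal muscle markers were higher in 5 of 5 (1.68). Their part was not tested.

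Doxorubicin and dexamethasone on day 8 both gave mostly lower values of these genes. With doxorubicin 43 of 49 members were lower than in saline, as against 55.1% of all genes, and with dexamethasone 44, as against 56%. The member median was −0.18 in both, beside −0.02 over all genes. In both, all 13 GTPases and all 7 MHC class I genes were lower. None passed in either drug (0% of all genes in both). Lower at an unadjusted p under 0.05 were 11 members with doxorubicin, as against 1.87% of all genes, and 12 with dexamethasone, as against 2.01%, and 0 were higher in either (1.48% and 1.25% of all genes). Those wholly below saline were 7 with doxorubicin (3.55% of all genes) and 12 with dexamethasone (4.51%). Without saline replicate 1 the member medians were −0.09 and −0.07, and 33 and 32 members were lower, with 2 and 4 at an unadjusted p under 0.05. The doxorubicin median was −0.32 without doxorubicin replicate 1, and its 11 members became 5 and 6 without doxorubicin replicates 2 and 3. The 12 of dexamethasone became 7 without dexamethasone replicate 1.

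Psmb9, an immunoproteasome subunit that shares Tap1's promoter stretch, was at 9.96, 6.39 and 5.26 TPM with doxorubicin and at 4.43, 9.20 and 7.44 with dexamethasone, against 15.98, 12.9 and 12.1 in saline. Both drugs lay below all saline libraries, at −0.87 ± 0.28 and −0.91 ± 0.28 (limma adjusted p = 1 for both). Tap1 was tight in both drugs, at 17.1, 17.1 and 16.7 TPM with doxorubicin and 16.3, 15.7 and 16.7 with dexamethasone. Against saline these gave −0.49 ± 0.17 and −0.55 ± 0.17 (limma adjusted p = 1 for both). With 1 library left out, Psmb9 ran from −1.10 to −0.70 with doxorubicin and from −1.11 to −0.65 with dexamethasone. Tap1 ran from −0.56 to −0.36 and from −0.62 to −0.42. The other members with the smallest p leaned on single libraries as well.

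Gbp2 was between 15.5 and 20.2 TPM with doxorubicin, a difference of −0.61 ± 0.20, and at 16.5, 17.7 and 17.4 with dexamethasone, a difference of −0.70 ± 0.20 (limma adjusted p = 1 for both). Without saline replicate 1 these were −0.27 and −0.36. Irgm1, a regulator of the immunity-related GTPases, was at 19.96, 15.3 and 17.05 TPM with doxorubicin against 33.2, 21.1 and 20.7 (−0.47 ± 0.16, limma adjusted p = 1), and −0.26 without saline replicate 1. Ifi47, a GTPase of the same family, was at 0.738, 9.37 and 10.3 TPM with dexamethasone against 19.7, 12.3 and 11.6. Its difference of −1.36 ± 0.43 (limma adjusted p = 1) was −0.48 without dexamethasone replicate 1. Neutrophil markers summed to 109 to 207 TPM with doxorubicin and 182 to 228 with dexamethasone, and macrophage markers to 166 to 209 and 177 to 217, beside 188 to 312 and 172 to 241 in saline; their part was not tested.

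**Figure D5:**
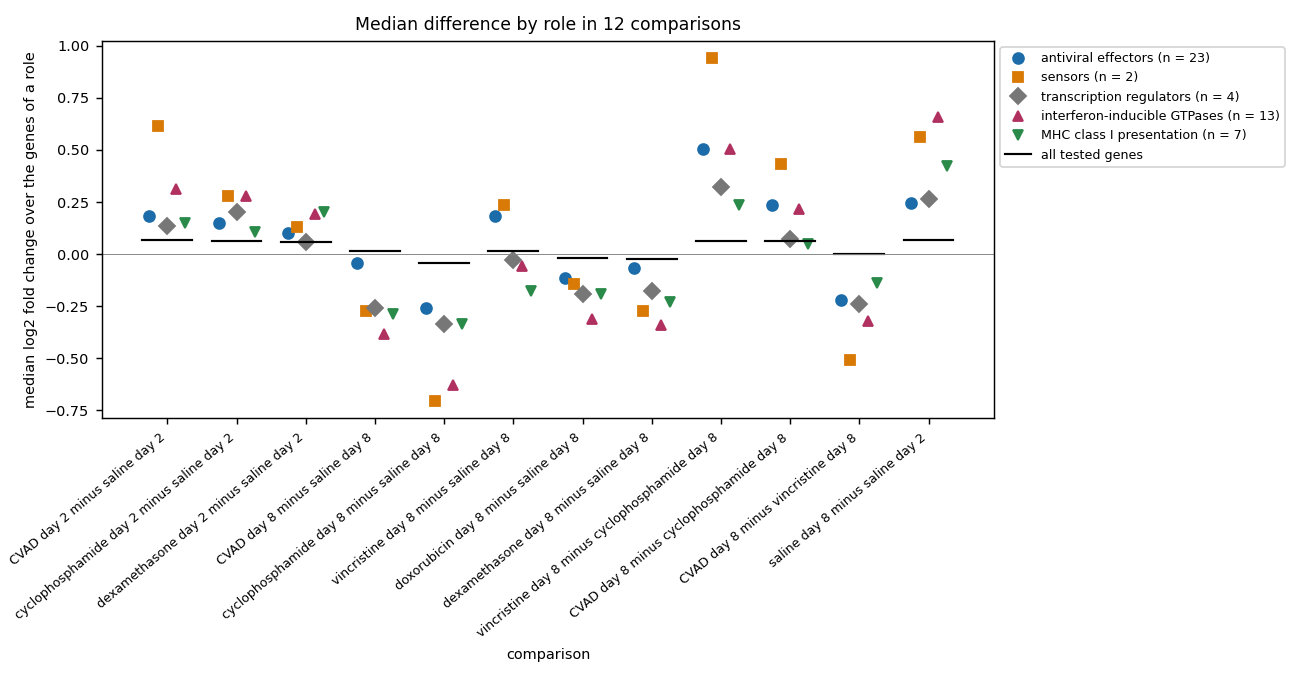
Median log2 fold change over the genes of each role (symbols) and over all tested genes (black lines) in 12 comparisons. GTPases and MHC class I genes lie below the black line in all 5 comparisons of a drug with saline on day 8, while antiviral effectors lie above it with vincristine alone. The GTPase median with vincristine turned positive without saline day 8 replicate 1.

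On day 2 the values pointed the other way, with members higher in the drug groups than in saline. The saline groups themselves differed between days. Relative to each gene's mean over 30 libraries, the member mean was −0.22 in saline on day 2 and 0.23 on day 8. On the same days it was 0.03 and −0.002 with CVAD, −0.10 and −0.004 with dexamethasone, and −0.01 and −0.21 with cyclophosphamide. With CVAD 47 of 49 were higher, all but Ifi27 and Oas2, as against 65.9% of all genes, at a median of 0.22 beside 0.07. With cyclophosphamide 44 were higher (64.7% of all genes), at a median of 0.19 beside 0.06. With dexamethasone 41 were higher (65.3% of all genes), at a median of 0.11 beside 0.06. None passed, as against 0.0432%, 0.0118% and 0.00393% of all genes. Higher at an unadjusted p under 0.05 were 10 members with CVAD (6.97% of all genes), 6 with cyclophosphamide (5.98%) and 1, Tap2, with dexamethasone (4.31%). Lower were 1 (Ifi27), 0 and 0, as against 1.22%, 1.53% and 1.05%. Wholly above saline were 5 members with CVAD (Ifit2, Ifit3b, Zbp1, Gbp4 and Gbp9; 11.3% of all genes), 0 with cyclophosphamide (8.52%) and 0 with dexamethasone (7.03%). The wholly separated shares are thus near or below the background. After median-ratio scaling 39, 38 and 32 members were higher. With dexamethasone, 0 members were then higher and 2 lower at an unadjusted p under 0.05, at a median of 0.05. With protein-coding genes alone these counts were also 0 and 2, at a median of 0.06.

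These day 2 values leaned on single saline libraries in both directions. Without saline replicate 1 the member medians for CVAD, cyclophosphamide and dexamethasone were 0.14, 0.12 and 0.03, beside 0.03, 0.02 and 0.02 over all genes. Then 37, 34 and 30 of 49 members were higher, with 2, 0 and 0 at an unadjusted p under 0.05. Without saline replicate 2 the last 3 counts were 2, 2 and 0. The dexamethasone median was then 0.06, level with 0.05 over all genes, and 31 of 49 members were higher. Without saline replicate 3 the member medians were 0.39, 0.34 and 0.28, beside 0.11, 0.10 and 0.10 over all genes. The counts at that p were then 24, 16 and 10. Of the drug libraries, the CVAD count was 6 without CVAD replicate 2, the cyclophosphamide count 3 without replicate 1 or 2, and the dexamethasone count 7 without dexamethasone replicate 3, where the median was 0.19. With CVAD, neutrophil markers were higher than in saline in 5 of 5 (median 0.75, 2 at an unadjusted p under 0.05). Macrophage markers were higher in 6 of 8 (0.23) and T and NK markers in 4 of 4 tested (0.39), beside 0.07 over all genes. Red cell markers were lower in 3 of 3 (−1.37). Their sums ran from 0.987 to 79.9 TPM with CVAD, to both sides of the 45.3 to 54.3 TPM in saline. With cyclophosphamide and dexamethasone, macrophage markers were higher in 6 and 7 of 8, at medians of 0.04 and 0.09. These were near the medians over all genes, 0.06 in both. Neutrophil markers were higher in 4 and 5 of 5 (0.13 and 0.19), and T and NK markers in 1 and 3 of 4 tested (−0.15 and 0.19). The shares of all genes that were higher are those given above beside the members. Spinal cord markers were lower than in saline in 4 of 4 tested with each drug. Their medians were −0.39 with CVAD, −1.77 with cyclophosphamide and −1.52 with dexamethasone, with 0, 3 and 2 at an unadjusted p under 0.05. Their part was not tested.

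Zbp1 was at 2.95, 5.85 and 5.08 TPM with CVAD on day 2 against 1.33, 1.25 and 2.79 in saline (1.02 ± 0.34, limma adjusted p = 0.373). Gbp3 was at 18.7, 13.2 and 16.4 TPM against 6.40, 9.85 and 13.9 (0.68 ± 0.24, limma adjusted p = 0.402). Gbp9, like Gbp3 a guanylate-binding protein, was at 10.4, 8.58 and 10.1 TPM against 6.29, 4.84 and 8.21 (0.55 ± 0.21, limma adjusted p = 0.445). For all 3 genes saline replicate 3 was the highest saline library, and it overlapped CVAD for Gbp3. The Gbp3 difference was 0.42 without saline replicate 1. Ifit2 was at 33.4, 35.6 and 32.9 TPM against 27.2, 27.9 and 30.5, a small difference between tight groups (0.24 ± 0.10, limma adjusted p = 0.496).

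With cyclophosphamide on day 2, Isg15 was at 25.8, 19.4 and 17.1 TPM against 7.23, 9.33 and 20.2 in saline (0.82 ± 0.29, limma adjusted p = 0.541). Saline replicate 3 lay inside the drug group, and the difference was 1.22 without it and 0.53 without saline replicate 1. Gbp7 was at 22.03, 24.2 and 18.2 TPM against 13.8, 14.5 and 20.1 (0.40 ± 0.15, limma adjusted p = 0.552). Gbp3 was at 17.4, 15.5 and 12.7 TPM (0.60 ± 0.24, limma adjusted p = 0.571). Tap1 was at 14.7, 19.99 and 17.95 TPM against 9.75, 12.3 and 18.1 (0.40 ± 0.17, limma adjusted p = 0.610). All of these overlapped saline through replicate 3. Without saline replicate 1 the Gbp3 difference was 0.34 and that of Tap1 0.21, and without replicate 3 that of Tap1 was 0.62.

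With dexamethasone on day 2, Tap2, the partner of Tap1, was at 29.5, 33.5 and 31.8 TPM against 24.1, 25.2 and 30.7 in saline (0.24 ± 0.11, limma adjusted p = 0.920). Isg15 was at 19.4, 17.9 and 14.8 TPM (0.59 ± 0.29) and Gbp9 at 9.32, 9.32 and 7.57 (0.41 ± 0.21), both with a limma adjusted p of 0.922. The Isg15 difference was 0.30 without saline replicate 1 and 0.99 without saline replicate 3, and that of Gbp9 was 0.24 without saline replicate 2. Oas2, which makes the 2-5A messenger, was the reverse, at 3.49, 2.87 and 2.47 TPM against 4.67, 3.27 and 8.93 (−0.67 ± 0.33, limma adjusted p = 0.922). That difference was −0.33 without saline replicate 3. Saline replicate 3 was the highest saline library of day 2 for Tap2, Isg15, Gbp9 and Oas2.

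The members also had higher values in saline on day 8 than in saline on day 2. On day 8, 48 of 49 members (all but Oas2) were higher than on day 2, as against 64.5% of all genes, at a median of 0.41 beside 0.07 over all genes. The GTPases were at 0.66 (13 of 13 higher), the MHC class I genes at 0.42 (7 of 7) and the antiviral effectors at 0.24 (22 of 23). None passed, as against 0.00393% of all genes. At an unadjusted p under 0.05 there were 25 higher, as against 5.53%, and 0 lower (1.40%), and 15 lay wholly above the day 2 libraries, as against 11.2%. The median was 0.25 without day 8 replicate 1 and also without day 2 replicate 2, and 0.57 without day 2 replicate 3. The 25 members became 15 without day 8 replicate 1, 16 without day 2 replicate 1 and 38 without day 2 replicate 3.

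Tap1 was at 29.4, 22.1 and 22.1 TPM in saline on day 8 and at 9.75, 12.3 and 18.1 on day 2, apart in every library (0.86 ± 0.17, limma adjusted p = 0.228). H2-K1 was at 126, 127 and 110 TPM against 81.5, 90.0 and 98.7, also apart (0.42 ± 0.09, limma adjusted p = 0.296). Tap1 passed without saline day 2 replicate 3 (1.08, limma adjusted p = 0.0226) and with library quality weights (0.90, limma adjusted p = 0.0391), in a range of 0.0226 to 0.740 over the settings tried. Neutrophil markers summed to 188 to 312 TPM on day 8 and 82.7 to 139 on day 2, T and NK markers to 9.55 to 15.2 and 5.93 to 9.65, and macrophage markers to 172 to 241 and 159 to 198. Spinal cord markers were lower on day 8 in 4 of 4 tested (median −1.77, 3 at an unadjusted p under 0.05). Their part was not tested, and anything that went with the day of collection cannot be told apart from it.

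The difference between the day 8 and day 2 responses to a drug was tested as an interaction, which takes in both saline groups. Between those saline groups the member median was 0.41 higher on day 8 than on day 2. It was negative for 43 of 49 members with CVAD (57.6% of all genes), at a median of −0.43 beside −0.05 over all genes. It was negative for 47 with cyclophosphamide (67.3%), at −0.57 beside −0.11, and for 43 with dexamethasone (64.4%), at −0.30 beside −0.08. None passed, as against 0.0826%, 0% and 0% of all genes. At an unadjusted p under 0.05, 20, 23 and 12 members were lower, as against 6.29%, 8.12% and 3.85% of all genes, and no member was higher (2.34%, 1.43% and 1.07%). Without saline day 8 replicate 1 the CVAD median was −0.25 with 12 members at that p, and the dexamethasone median −0.17 with 5. Without saline day 2 replicate 1 these counts were 12 and 5 as well, and the dexamethasone count was 7 without saline day 2 replicate 2 or dexamethasone day 2 replicate 1. Without saline day 2 replicate 3 the counts of cyclophosphamide and dexamethasone were 39 and 19. Tap1 had a difference of −0.99 ± 0.24 for CVAD (limma adjusted p = 0.118), −1.25 ± 0.24 for cyclophosphamide (limma adjusted p = 0.0875) and −0.76 ± 0.24 for dexamethasone (limma adjusted p = 0.932). Iigp1 had −1.47 ± 0.37 for CVAD (limma adjusted p = 0.141) and −1.77 ± 0.37 for cyclophosphamide (limma adjusted p = 0.0924), and Psmb9 −1.27 ± 0.40 for dexamethasone (limma adjusted p = 0.932). Under other settings Tap1 passed for CVAD and cyclophosphamide, with limma adjusted p from 0.00885 to 0.0382 where it passed and up to 0.281 and 0.293 where it did not, and Gbp3 and Iigp1 passed for cyclophosphamide with quality weights.

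Genes upstream of these targets were measured on separate lists. The 21 interferon genes on a list of ligands were at most 0.625 TPM in any library, with 7 at 0 throughout and 27 of 630 values above 0, and Ifng was above 0 in 2 libraries. The receptors were well expressed: Ifnar1 was at 66.3 to 85.3 TPM over the 30 libraries, Ifnar2 at 26.8 to 51.9, Ifngr1 at 41.7 to 59.6 and Ifngr2 at 34.2 to 47.8. No receptor (6 genes), signal transducer (10) or nucleic acid sensor (17 tested of 18) on the lists passed in any of the 15 comparisons.

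Other interferon targets, a list of 39 further genes such as Ifitm2, Rtp4, Parp12, Slfn5 and Cxcl10, had day 8 values near those of the members. This list, like the members, was chosen with earlier results of these data known. Of the 38 tested, 38 were lower than saline with cyclophosphamide on day 8 (median −0.38), 30 with CVAD (−0.16), 33 with doxorubicin (−0.19) and 30 with dexamethasone (−0.18). With vincristine 18 were higher and 20 lower (−0.01). Between vincristine and cyclophosphamide 37 of 38 were higher with vincristine (0.46), and between saline on day 8 and day 2, 36 were higher on day 8 (0.38). On day 2, 34, 34 and 25 of 38 were higher than saline with CVAD, cyclophosphamide and dexamethasone. Their medians were 0.26, 0.16 and 0.09, beside 0.07, 0.06 and 0.06 over all genes. None of these 38 passed in any of these comparisons. At an unadjusted p under 0.05 their counts were 17 lower with cyclophosphamide, 20 higher between vincristine and cyclophosphamide, and 13 higher between the saline groups. The list of 15 further MHC class I genes, such as Tapbp, Psme1 and H2-T23, was lower in 14 with cyclophosphamide on day 8 (−0.22) and higher in 15 of 15 in saline on day 8 against day 2 (0.19), with none passing. For both lists, the shares of all genes in each comparison are those given above beside the members.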

How the data were processed

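Per the labels' protocols, libraries were stranded and made from 60 to 80 ng of total RNA after removal of ribosomal RNA with Ribo-Zero Plus. Per the submitters' processing notes, reads were handled with StringTie 2.2.1, STAR 2.7.10b and FastQC 0.12.1; the notes list GRCm39 and mm10 but not what each served for. The authors deposited 1 table of TPM per gene, whose columns each sum to 999910 to 999941, so depth is not recoverable. Each column was assigned to its sample by the library name in the labels.

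The members and all lists were chosen with earlier results of these data known. Genes with at least 1 TPM in at least 3 of 30 libraries were tested (25434 of 56686). In limma 3.58.1 (R 4.3.3), all 30 libraries entered 1 model of log2(TPM + 1) with the 10 group means as terms, a scale that understates changes of low genes, with a variance trend, 2-sided tests and Benjamini-Hochberg adjustment over all tested genes per comparison (threshold 0.05). The model pools the spread of all 10 groups. The code was tested on simulated data. Tests are printed for the 4 members of smallest p in each comparison with saline and for 2 in each other comparison. For repeated symbols the most abundant entry was used. Alternatives were median-ratio scaling, a pseudocount of 0.1, 1 model per day, no filter on low TPM, library quality weights, leaving out each library and, added after seeing the data, protein-coding genes alone. Promoters were searched in the 250 bases before the start with Python 3.11.15 and pandas 2.3.3, and figures drawn with matplotlib 3.10.9 and numpy 2.4.6. The promoter coordinates are GRCm38.p6, a build other than that of the table's own coordinates. Bst2 is both a member and a marker of plasmacytoid dendritic cells.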

Additional observations from a re-analysis of the deposited data

How the results depend on the processing

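No paired analysis was possible because the replicate numbers were given in accession order and the labels name no shared litter, batch or day. The 46 named differences were chosen by their small p in these data, and all were short of the threshold in the main fit. Under an alternative 571 of their 580 values were still short of it and 9 passed. No named difference reversed, but a kept sign is little support for differences chosen in this way. Sizes moved, as for Ifi47 with dexamethasone on day 8, which ran from −1.84 to −0.48. The count of members passing, 0 throughout in the model over all libraries, was 0 in 185 of 194 fits with another setting. It was 1 for cyclophosphamide against saline on day 8 with a separate model for each day (Tap1), and with library quality weights it was 1 for saline day 8 against day 2, 1 for the CVAD response and 3 for the cyclophosphamide response between days (Gbp3, Iigp1, Tap1). With 1 library left out the count ran from 0 to 1 in these 4 comparisons. The libraries concerned were saline day 8 replicate 3 for cyclophosphamide (Gbp2) and for the saline groups (Gbp2), and saline day 2 replicate 3 for the saline groups and both responses (Tap1). The cause was not tested. The median over members of the cyclophosphamide response ran from −0.79 to −0.44. That of vincristine against saline, near 0, changed sign in 5 fits and ran from −0.04 to 0.18 with 1 library left out. The other medians kept their sign, but without saline day 8 replicate 1 that of the CVAD response was −0.25 and that of the dexamethasone response −0.17. Median-ratio scaling moved the all-gene median of the cyclophosphamide response by over 0.1, to about 0. The unknown depth prevents any statement on counting error, and 3 libraries a group limit what could pass.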
